A study of Tribolium castaneum with 9 samples.

Results

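The fat body and the Malpighian tubules of adult red flour beetles, Tribolium castaneum, both labelled as treated with carbonyl sulfide (COS, a grain fumigant), were compared by RNA sequencing, from the deposited table of reads per gene. The comparison rests on 6 of the 9 libraries of the series, namely 3 of fat body (titles COS70FB1 to COS70FB3) and 3 of tubules (COSMT1 to COSMT3). The remaining 3 libraries come from untreated whole beetles. They entered the filter on low counts, the scaling and the estimate of spread, and their levels are given for some genes. Every library was labelled as adult and of a susceptible phenotype. No dose, exposure time, sex, or number of pooled beetles was stated, and the meaning of the "70" in the fat body titles was not given, so equal exposure of both organs cannot be checked. No untreated organ was among the 9 libraries. The contrast is therefore one of organ against organ under 1 treatment label, and it says nothing about the effect of the fumigant. Of the 5467 genes of the deposited table, 5358 had enough counts to be tested and 109 did not.

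The insect fat body is a loose tissue bathed in haemolymph that stores lipid and glycogen, makes the yolk precursors and most proteins of the haemolymph, and breaks down amino acids. The Malpighian tubules are blind epithelial tubes that form the primary urine. A proton pump of the V type energises their apical membrane, cations leave the cell in exchange for protons, potassium enters through basolateral channels and pumps, chloride and water follow, and peptide hormones set the rate. The tubules also carry organic anions and cations, sugars and metals. COS itself is a substrate of carbonic anhydrase, which hydrolyses it to hydrogen sulfide and carbon dioxide.

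Levels below are CPM, read counts relative to the recovered library total and scaled with TMM, the trimmed mean of log ratios, and are given for libraries 1, 2 and 3 in that order. Differences are log2 fold changes of fat body over tubules with an approximate standard error (SE), from edgeR's quasi-likelihood test over 3 against 3 libraries. A value above 0 is higher in fat body, one below 0 is higher in tubules, and "passed" means an adjusted p under 0.05 over all 5358 genes. Library totals ran from 16125682 to 18174747 reads in fat body and from 15175796 to 19866421 in tubules. The genes of the table hold 67.0% to 67.3% of the fat body reads but 45.7% to 50.5% of the tubule reads. The table was chosen by the authors on these same libraries, since every gene in it passes a deposited log2 fold change of 1 or more, up or down, in some comparison. A count of called genes is thus not independent evidence that the organs differ. Nothing in the labels states that the 3 libraries of an organ came from separate beetles. The p-values therefore measure the spread between libraries of the same group, whole beetles included, and that spread may be technical. Genes were named by a fixed rule, except LOC659358, LOC655392, LOC662658, LOC662314, LOC662347, V, Cn, LOC657125, LOC103314884, LOC659179, LOC656735, LOC658481, LOC657969, LOC655654, LOC655533, Gnbp2, Lyz and LOC660551, which were chosen after their values were seen.

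Genes known from each organ lay mostly, but not all, on the side of its label. Vitellogenin and apolipophorin were higher in fat body, and most proton pump subunits, most inward rectifier potassium channels and the capa receptor were higher in tubules. Of 5 hexamerins, 4 did not pass, nor did the lipid droplet gene LOC660518. A proton pump subunit (LOC658882) and tiptop (LOC658891), a stellate cell gene in flies, were higher in fat body, and the call of cut (LOC659250), a tubule gene in flies, depended on the scaling. Markers of other tissues were present as well. The 34 muscle markers summed to 8855 to 10423 FPKM (deposited reads per gene length and depth) in fat body, 517 to 644 in tubules and 4288 to 4778 in whole beetles, so the fat body libraries held more muscle transcript than whole beetles did. Of those markers, 22 were higher in fat body (64.7%) and 6 in tubules (17.6%), and none was at 0 counts in either organ. Over all 5358 tested genes these shares were 38.8% and 41.0%, the background for every marker list here. Myosin heavy chain of muscle (LOC659358) stood at 7924, 7433 and 9907 CPM in fat body, 252, 228 and 200.5 in tubules and 2957, 2899 and 2934 in whole beetles. Gut markers went the other way, with sums of 365 to 504 FPKM in fat body and 1971 to 3868 in tubules. Their call counts were 12 higher in fat body and 31 higher in tubules of 48 tested, with 3 of 50 markers at 0 counts in fat body. Both ovary markers, the vitellogenin receptor LOC657346 and bicaudal C LOC663844, were higher in tubules, and the receptor ran 51.6, 19.7 and 7.02 CPM in fat body against 604, 202 and 857 in tubules. Tubule libraries 1 and 3 thus held more of this transcript than library 2. All 4 haemocyte markers were higher in fat body, at 274 to 647 against 26.5 to 38 FPKM in sum. In bulk tissue, fewer cells of a type and less RNA per cell cannot be told apart, and the part of these tissues in the results below was not tested unless a value is given.

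**Figure D1:**
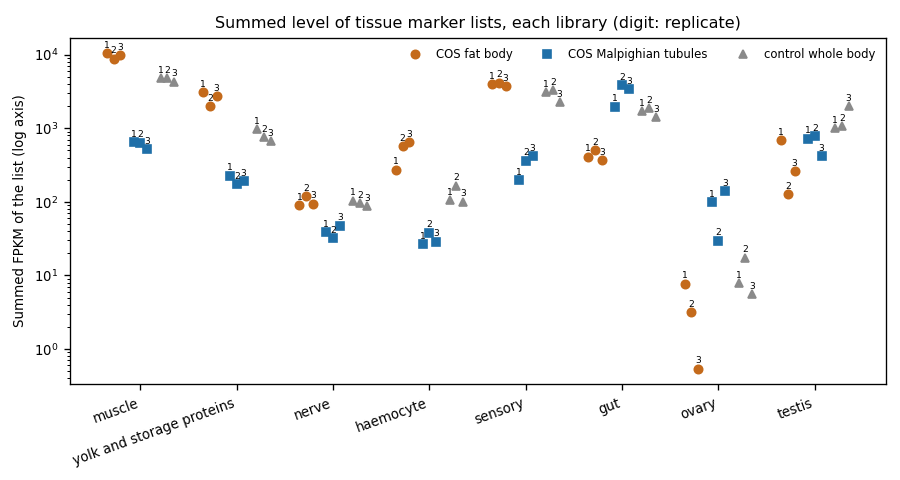
Summed deposited FPKM (log axis) of 8 marker lists in each of the 9 libraries; the digit is the replicate, circles are COS fat body, squares COS Malpighian tubules and triangles control whole beetles. Muscle markers lie above the whole beetle level in all 3 fat body libraries, gut markers are highest in tubules, ovary markers are highest in tubule libraries 1 and 3, and testis markers spread within both organs.

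Fat body library 1 stood apart from libraries 2 and 3, with a chi-square per degree of freedom of 147 and 133 against them, where libraries 2 and 3 gave 63.5. The 32 testis markers followed that split. Their summed level was 690.4, 128 and 263 FPKM in the fat body libraries and 723, 786 and 421 in the tubule libraries. The organs overlapped, and 25 of the markers did not pass, with 2 higher in fat body and 5 in tubules (11 without fat body library 1). Library 1 highest and library 2 lowest in fat body, with library 3 lowest in tubules, was the order of that sum. It was also the order of 27 of the 32 testis markers, a count that is not independent of their sum. The same order was found in 460 of the 1083 genes that did not pass (42.5%), and in 209 of the 4275 genes that did (4.89%). A wide spread within an organ itself keeps a gene from passing, so the contrast of these shares is partly built in. The order alone does not assign a gene to testis.

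Across the table, 4275 of 5358 genes passed (79.8%). Of these, 2077 were higher in fat body (38.8% of the genes tested) and 2198 in tubules (41.0%), and 1083 did not pass. These shares are the background for each list above and below. The median log2 fold change of all tested genes was -0.24. Fold changes of 4 or more were called for 955 genes in fat body and 1298 in tubules, and of 32 or more for 65 and 187. With TMM scaling, more of the steepest differences thus lay on the tubule side, and these counts were not made under another scaling. The 3 fat body and 3 tubule libraries did not overlap in 80.3% of genes (fat body above in 39.7%, tubules above in 40.6%). Without fat body library 1, 4533 genes passed, 2090 and 2443 in the same order. In the authors' deposited table, 4289 genes differed between the organs by 1 or more on the log2 scale, 2416 higher in fat body and 1873 higher in tubules. Refitting with their size factors moved the median of all genes from -0.24 to 0.42, a shift of 0.66, and called 2506 genes higher in fat body and 1948 in tubules. Log2 differences smaller than that shift therefore depend on the scaling, and so do counts of genes above a fixed fold change. The shift is towards fat body, so it shrinks or turns small differences towards tubules and widens those towards fat body.

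**Figure D2:**
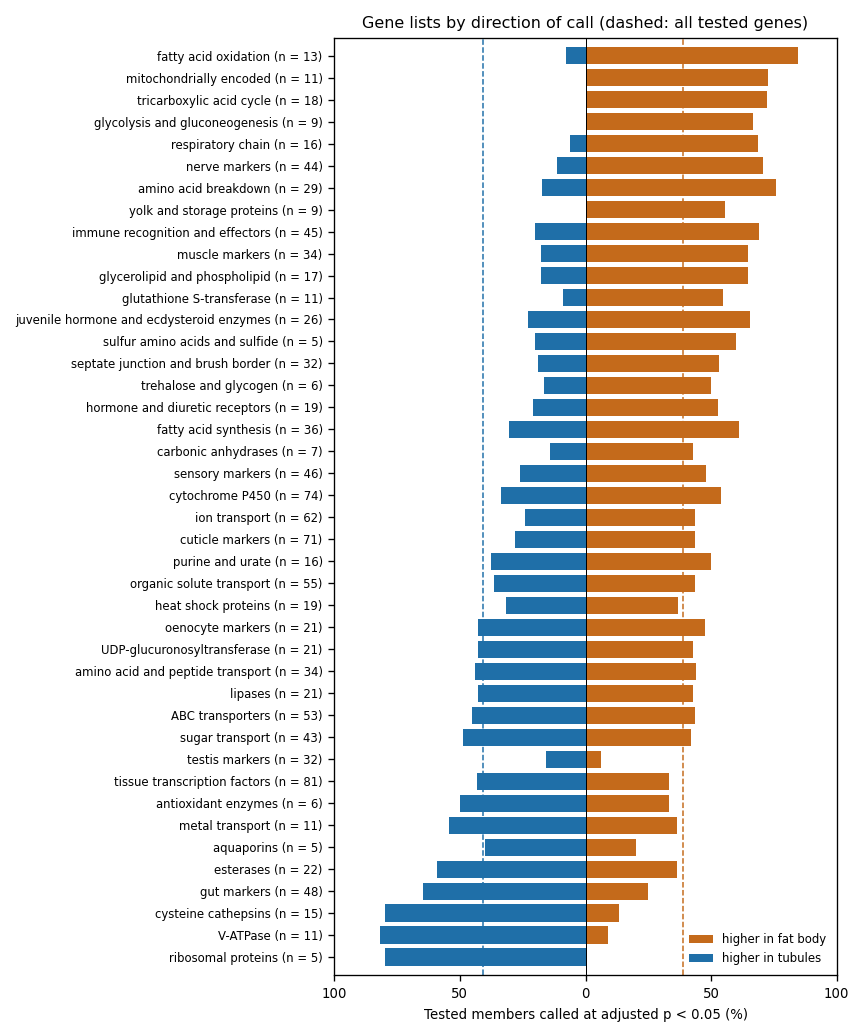
Share of tested members of each gene list that passed (%), to the right where higher in fat body and to the left where higher in tubules; n is the number tested, lists with under 5 tested members are left out, and dashed lines mark the shares over all 5358 tested genes, 38.8% and 41.0%. Fatty acid oxidation, the tricarboxylic acid cycle and amino acid breakdown lie far to the fat body side, and V-ATPase, cathepsins and gut markers to the tubule side.

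Yolk and storage proteins are products of the fat body. Of 9 tested members, 5 were higher in fat body, none was higher in tubules, and the median log2 fold change was 3.09. Vitellogenin LOC660042, the precursor of yolk protein, stood at 12043, 6082 and 7682 CPM in fat body and 512, 380.0 and 322 in tubules, while whole beetles had 741, 494 and 386. Fat body library 1 was the highest and the organs did not overlap, with a difference of 4.41 ± 0.37 (SE), adjusted p = 6.7e-06. The second vitellogenin gene, LOC658755, was at 2896, 1051 and 1263 CPM in fat body against 158, 144 and 113 in tubules (3.65 ± 0.48). Apolipophorin, the lipid carrier of the haemolymph, was encoded by LOC663181 at 2951, 5644 and 11472 CPM in fat body and 194, 148 and 393 in tubules. Its fat body libraries spread widely, with library 3 highest, yet all lay above every tubule library (4.77 ± 0.57 (SE), adjusted p = 5.3e-05; 4.14 without library 3). A related gene, LOC107398075, gave 3.50 ± 0.28.

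The hexamerins, storage proteins made in quantity by larvae, did not move as a block. HEX5 was higher in fat body, at 116, 110.1 and 151 CPM against 11.4, 15.6 and 17.4 (3.09 ± 0.22 (SE), adjusted p = 2.9e-06). HEX1A, HEX1B, HEX2 and HEX3 did not pass, with log2 fold changes of -0.12, 0.86, 0.05 and -0.33. HEX1A ran 122, 26.6 and 51.2 CPM in fat body and 101, 62 and 54.2 in tubules, with fat body library 1 highest and library 2 lowest. Without library 1 it was higher in tubules (-0.89, adjusted p = 0.037). HEX1B was called higher in fat body without fat body library 2 (1.11, adjusted p = 0.027) or without tubule library 1 (1.29, adjusted p = 0.013), and with RLE factors, upper-quartile factors, the authors' size factors, DESeq2 and the replicate block.

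Of 2 lipid droplet genes, 1 was higher in fat body. LOC659061, a droplet surface protein of the perilipin family, was at 671, 948 and 853 CPM in fat body and 42.2, 72.1 and 51.4 in tubules (3.90 ± 0.28 (SE), adjusted p = 3.2e-06). The other member, LOC660518, was at 565, 470.0 and 305 CPM in fat body and 626, 375 and 719 in tubules, and the organs overlapped (adjusted p = 0.37).

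**Figure D3:**
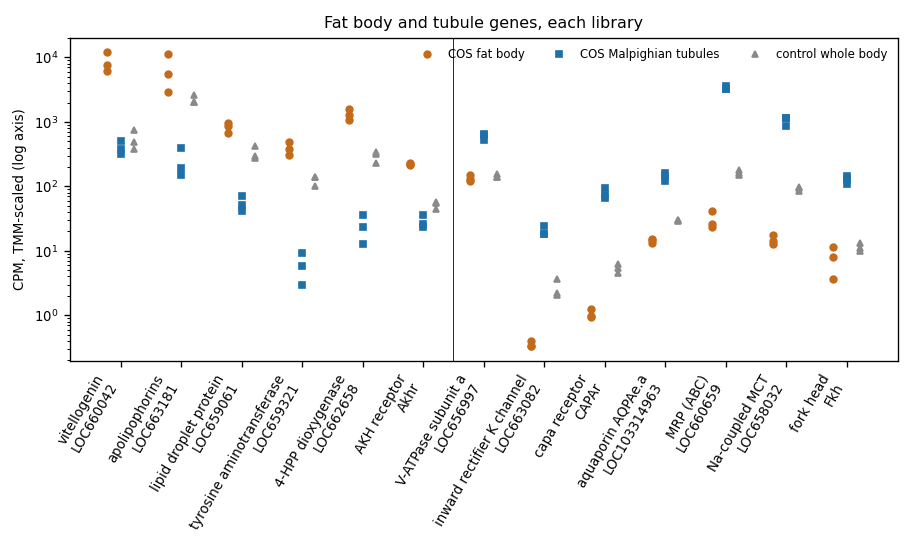
TMM-scaled CPM (log axis) of 13 genes in each library, fat body genes to the left of the line and tubule genes to the right; circles are COS fat body, squares COS Malpighian tubules, triangles control whole beetles, and each point is 1 library. For all 13 genes the 3 fat body and 3 tubule libraries do not overlap, as for 80.3% of all tested genes. The 13 are a selection that leaves out HEX1A and LOC660518, which overlap, and LOC658882, the gene annotated as proton pump subunit G.

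Amino acid breakdown lay mostly with the fat body. Of 29 tested genes, 22 were higher in fat body and 5 in tubules, with a median of 1.32. Of the 5 members on the route from phenylalanine through tyrosine, 4 were chosen after their values were seen. Henna (LOC655392), named for the fly's phenylalanine hydroxylase, which makes tyrosine, was at 379, 294 and 514 CPM in fat body and 12.8, 9.96 and 14.6 in tubules (4.99 ± 0.26 (SE), adjusted p = 7.2e-07). Tyrosine aminotransferase (LOC659321), the next step, was at 310.1, 374 and 479.7 CPM in fat body and 2.95, 5.92 and 9.16 in tubules, a 64.8-fold difference (6.02 ± 0.44 (SE), adjusted p = 3.6e-06). 4-Hydroxyphenylpyruvate dioxygenase (LOC662658), which forms homogentisate, followed at 1084, 1302 and 1562 CPM in fat body and 12.9, 23.6 and 36.6 in tubules (5.76 ± 0.42). Homogentisate 1,2-dioxygenase (LOC662314), which opens the ring, was at 203, 229.6 and 284 CPM in fat body and 49.8, 52.4 and 61.1 in tubules (2.13 ± 0.21). Maleylacetoacetate isomerase (LOC662347), the next enzyme, was at 126, 110.0 and 122 CPM in fat body and 59.4, 64.5 and 50.1 in tubules (1.04 ± 0.16). All 5 genes were higher in each fat body library than in any tubule library. The same held for 39.7% of all tested genes, and the way these genes were chosen favoured it.

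The 3 genes of tryptophan use described, V, Cn and LOC657125, were also chosen after their values were seen. Tryptophan 2,3-dioxygenase (V, vermilion), the entry step, was at 77.8, 70.9 and 91 CPM in fat body and 5.74, 11 and 8.76 in tubules (3.24 ± 0.25). Kynurenine 3-monooxygenase (Cn, cinnabar), a later step that leads to the brown eye pigment of flies, was at 9.20, 11.9 and 23.6 CPM in fat body and 185, 239 and 271 in tubules (-3.96 ± 0.36 (SE), adjusted p = 1.1e-05). Scarlet (LOC657125), an ABC transporter that carries pigment precursors in flies, was higher in tubules too, at 0.866, 1.14 and 1.35 CPM in fat body against 43.5, 52.8 and 41.9 in tubules (-5.35 ± 0.25). Histidine ammonia-lyase (LOC664601), the first step of histidine breakdown, was the member furthest to the tubule side, at 8.06, 9.88 and 7.63 CPM in fat body and 178, 207 and 181 in tubules (-4.46 ± 0.19 (SE), adjusted p = 2.5e-07).

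Lists of mitochondrial fuel use had more genes higher in fat body than in tubules. Of 13 fatty acid oxidation genes, 11 were higher in fat body and 1 was higher in tubules (median 1.20). Very long-chain acyl-CoA dehydrogenase (LOC659957), which takes the first step of beta-oxidation, was at 765, 939 and 1179 CPM in fat body and 225, 272 and 228 in tubules (1.99 ± 0.19 (SE), adjusted p = 1.7e-05). The exception, a cytosolic acetyl-CoA acetyltransferase (LOC662066), was at -1.39 ± 0.17. The tricarboxylic acid cycle list includes pyruvate carboxylase and a cytosolic NADP isocitrate dehydrogenase. Of its 18 genes, 13 were higher in fat body and none in tubules. Cytosolic NADP isocitrate dehydrogenase (LOC661014), which supplies NADPH, was at 95.6, 77.3 and 102 CPM in fat body and 6.87, 9.96 and 11.5 in tubules (3.28 ± 0.24 (SE), adjusted p = 4.1e-06). Mitochondrial NADP isocitrate dehydrogenase (LOC659013) had the highest FPKM of the list, with 2.33 ± 0.21. The 5 members that did not pass all had fat body library 1 highest, library 2 lowest and tubule library 3 lowest, and without fat body library 1 the count became 13 and 4. Glycolysis and gluconeogenesis had 6 of 9 higher in fat body and none in tubules, and 5 and 2 without that library. Against a 2-fold threshold, the genes higher in fat body were 6 of 13 in fatty acid oxidation, 5 of 18 in the tricarboxylic acid cycle and 2 of 9 in glycolysis. Over all tested genes, 1323 of 5358 were higher in fat body at that threshold. The counts of the last 2 lists were near that background.

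Fructose-1,6-bisphosphatase (LOC656164), which turns the pathway towards sugar production, had the highest FPKM of the glycolysis list and was at 411, 481 and 576 CPM in fat body and 128, 157 and 164 in tubules (1.71 ± 0.18). Hexokinase (LOC659227), the entry step, was the steepest, with 2.13 ± 0.22. Nuclear-encoded respiratory chain genes passed in fat body for 11 of 16, and 9 of the 11 differences were smaller than the shift of 0.66 that the authors' scaling brings. That shift is towards fat body, and with the authors' size factors 12 were higher there. The count of 11 fell to 7 without fat body library 3, without tubule library 1 or 3, or without whole beetle library 2. It fell to 0 against a 2-fold threshold. Genes higher in tubules numbered 1, and 3 without fat body library 1. A cytochrome c oxidase subunit 6C gene, LOC656279, was the 1 called with all libraries, at 18.2, 18.9 and 17.4 CPM in fat body and 108, 184 and 119 in tubules (-2.91 ± 0.22 (SE), adjusted p = 4.2e-06). Of 11 mitochondrially encoded transcripts, 8 were higher in fat body and none in tubules (median 0.67). The leading one, cytochrome c oxidase subunit I (KEF75_p12), was at 72255, 67009.8 and 65941 CPM in fat body and 29467, 40588 and 29827 in tubules (1.04 ± 0.18), and the count fell to 4 without tubule library 1 or 3 to 5 without fat body library 2 and to 0 against a 2-fold threshold. Muscle, whose marker sum was higher in every fat body library than in any tubule library, is rich in the same pathways, and its part in these counts was not tested.

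Among trehalose and glycogen genes, 3 of 6 were higher in fat body and 1 in tubules. The glycogen-binding subunit 76A (LOC664269), a targeting subunit of protein phosphatase that acts on glycogen, was at 122, 118 and 121 CPM in fat body and 22.2, 22.9 and 24.8 in tubules (2.37 ± 0.13 (SE), adjusted p = 9.6e-07), close to the whole beetle level of 145, 138 and 129.6. Trehalose-phosphate synthase (LOC659356), which makes the blood sugar of insects, was at 459, 404 and 443 CPM in fat body and 242, 192 and 301 in tubules (0.83 ± 0.19). Glycogen phosphorylase (LOC657406) gave 0.84 ± 0.28 (SE), adjusted p = 0.021, and lost the call without fat body library 3 (adjusted p = 0.06). Trehalase LOC662782, which splits trehalose, was higher in tubules (-1.09 ± 0.24, a call lost under the authors' size factors with adjusted p = 0.096), at levels of 8.33, 7.90 and 9.86 CPM in fat body and 21, 15.4 and 19.3 in tubules. The other trehalase, LOC662806, overlapped between organs, at 40.2, 5.23 and 16 CPM in fat body and 29.2, 37.2 and 11 in tubules, in the library order of the testis markers. UTP-glucose-1-phosphate uridylyltransferase (LOC660308) did not pass (0.36 ± 0.19), but passed without tubule library 3 (0.55, adjusted p = 0.02).

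Fatty acid synthesis genes split by copy. Of 36 members, 22 were higher in fat body and 11 in tubules. Fatty acid synthase LOC103314884 was at 737, 597 and 1123 CPM in fat body and 109.5, 64 and 75.3 in tubules (3.30 ± 0.29 (SE), adjusted p = 9.4e-06). Fatty acid synthase LOC659179 was at 36.7, 21.7 and 42.3 CPM in fat body and 90.1, 129 and 165 in tubules (-1.93 ± 0.32), and both organs lay under the whole beetle level of 884, 583 and 552. The desaturases, which put a double bond into fatty acids, split likewise. The delta-11 desaturase LOC656478 was at 141, 189.9 and 178 CPM in fat body and 3.31, 2.31 and 4.28 in tubules (5.68 ± 0.28 (SE), adjusted p = 5e-07), and Z9desB at 357, 384 and 281 CPM in fat body and 62, 56.6 and 65.3 in tubules (2.47 ± 0.32). Desaturase LOC662865 was higher in tubules, at 14.9, 1.59 and 0.203 CPM in fat body and 32.9, 74.7 and 61.9 in tubules (-3.34 ± 1.06 (SE), adjusted p = 0.016). Its difference was steeper without fat body library 1 (-5.91).

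Glycerolipid genes were higher in fat body for 11 of 17 and in tubules for 3. The acylglycerol acyltransferase LOC664010, an enzyme of triglyceride assembly, was at 11.9, 20.3 and 21.3 CPM in fat body and 0, 0 and 0.201 in tubules, with only 3 counts in all tubule libraries. Phospholipid scramblase 1 (LOC661096) was higher in tubules, at 13.3, 12.7 and 8.17 CPM in fat body and 123, 175 and 107 in tubules (-3.57 ± 0.26 (SE), adjusted p = 3.8e-06). Lipases divided evenly, 9 and 9 of 21. The lowest, lipase member K LOC660826, had 90 counts in tubules and 0 in fat body, at least 31.9-fold higher in tubules when fat body is set to 3 counts over the group. Triacylglycerol lipase LOC656735 was at 133, 161 and 162 CPM in fat body and 2.33, 5.19 and 6.49 in tubules (5.03 ± 0.36 (SE), adjusted p = 3.5e-06), whereas the inactive pancreatic-lipase-related protein LOC658481 was at 5.66, 3.98 and 10.7 CPM in fat body and 55, 144 and 178 in tubules and went the other way (-4.21 ± 0.51). The lipase with the highest FPKM, LOC664277, was higher in fat body (1.27 ± 0.21).

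On the tubule side, the V-type proton pump moved almost as a block. Of 11 tested subunits, 9 were higher in tubules and 1 in fat body, with a median of -1.77 where the median of all genes was -0.24. Their summed level was 1439.6, 1844 and 1701 FPKM in the tubule libraries, 534, 561 and 493 in fat body and 681, 695 and 715 in whole beetles. Subunit a (LOC656997), the membrane subunit that carries the proton path, was at 132, 153 and 119 CPM in fat body and 519, 647 and 629 in tubules (-2.15 ± 0.16 (SE), adjusted p = 3.6e-06). The catalytic subunit A (LOC663322) was at 277, 346 and 336 CPM in fat body and 1064, 1378 and 1229 in tubules (-1.94 ± 0.15), and subunit B (LOC656208), its partner in the catalytic head, at 257, 307 and 299 CPM in fat body and 955, 1247 and 1117 in tubules (-1.94 ± 0.15). Subunits of the stalk and the proton-translocating ring were close together. E (LOC659201) was at -1.92, C (LOC661302) at -1.86, the 16 kDa proteolipid (LOC656327) at -1.77, F (LOC663894) at -1.71, d (LOC663777) at -1.67 and e 2 (LOC660587) at -1.57.

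The gene annotated as subunit G, LOC658882, was higher in fat body, at 52.5, 43.9 and 40.6 CPM against 7.70, 11.2 and 4.35 in tubules (2.56 ± 0.32 (SE), adjusted p = 6.4e-05). The gene annotated as subunit D, LOC661586, was at 23.2, 3.01 and 7.70 CPM in fat body and 17.5, 22.4 and 8.76 in tubules and overlapped (-0.52 ± 0.67). It had the library order of the testis markers and its highest levels, 27.9, 32.2 and 61.3 CPM, in whole beetles. Without fat body library 1 it was called higher in tubules (-1.60, adjusted p = 0.027).

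**Figure D4:**
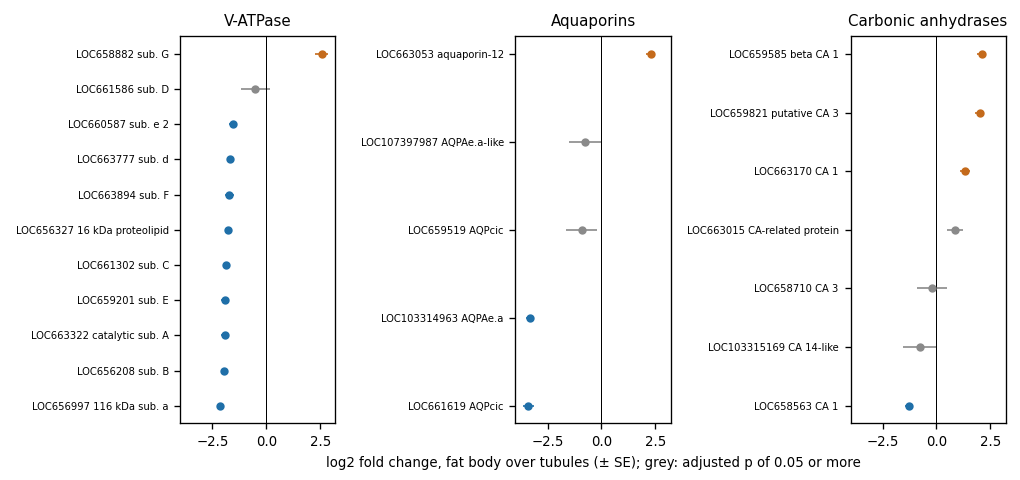
Log2 fold change of fat body over tubules (± approximate SE, 3 against 3 libraries) of every tested V-ATPase subunit, aquaporin and carbonic anhydrase; orange passed as higher in fat body, blue as higher in tubules, grey did not pass. The 9 blue V-ATPase subunits lie between -2.15 and -1.57 while the gene annotated as G is at 2.56, and the carbonic anhydrases lie on both sides of 0.

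Ion channels and exchangers did not share 1 direction. Of 62 tested genes, 27 were higher in fat body and 15 in tubules, and without fat body library 1 the tubule count was 26. The 3 lowest values belonged to inward rectifier potassium channels, which let potassium into the principal cell from the blood side in flies. LOC663082 was at 0.333, 0.398 and 0.338 CPM in fat body and 17.9, 24 and 18 in tubules (-5.77 ± 0.34 (SE), adjusted p = 1.2e-06). LOC659210 was at -5.30 ± 0.51, LOC100142140 at -4.58 ± 0.26, LOC659051 at -2.73 ± 0.39, LOC654910 at -2.60 ± 0.24 and LOC663056 at -1.95 ± 0.39. The last, LOC663026, was higher in fat body, at 199, 223 and 230.1 CPM in fat body and 82.9, 68 and 84.2 in tubules (1.47 ± 0.16 (SE), adjusted p = 2.6e-05). LOC663852, annotated as mitochondrial sodium/hydrogen exchanger 9B2, a family that includes the NHA cation/proton exchangers of insects, was at 13.3, 20.1 and 14.6 CPM in fat body and 123, 101 and 115 in tubules (-2.82 ± 0.21 (SE), adjusted p = 4.2e-06). Sodium/potassium/calcium exchanger 4 (LOC657106) was also higher in tubules (-2.78 ± 0.29), as was the chloride channel bestrophin-3 (LOC659577, -2.17 ± 0.31), while bestrophin-2 (LOC656842) was higher in fat body (2.29 ± 0.45).

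Of 8 sodium pump genes, 6 were higher in fat body and none was called higher in tubules with all libraries. The alpha subunit gene with the most counts, LOC663833, was at 757, 1062 and 1169 CPM in fat body and 438, 414 and 423 in tubules (1.23 ± 0.17 (SE), adjusted p = 0.00013). All 5 genes annotated as its beta-2 subunit were higher in fat body as well, from LOC661633 at 1.30 to LOC100141520 at 3.13. The beta-1 subunit LOC662497 was at 222, 228 and 239.5 CPM in fat body and 192, 199.8 and 192 in tubules and did not pass (0.24 ± 0.12), nor did the second alpha subunit gene, LOC661036 (-0.88 ± 0.68), which was called higher in tubules without fat body library 1 (-1.75, adjusted p = 0.04). The sarcoplasmic calcium pump (LOC658328), which refills the calcium store of muscle, had the highest FPKM of the list, at 4618, 4071 and 4396 CPM in fat body and 609, 578 and 609 in tubules (2.87 ± 0.13 (SE), adjusted p = 2.6e-07). The largest difference towards fat body belonged to a voltage-gated potassium channel subunit (LOC658668), at 36.9, 44.3 and 46.4 CPM in fat body and 2.95, 2.31 and 1.94 in tubules (4.14 ± 0.22). Muscle and nerve markers lay in the same direction, with 31 of 44 nerve markers higher in fat body and 5 in tubules, at summed levels of 89.7 to 120.2 against 32.2 to 47.3 FPKM, and their part was not tested. The 20 ion transport genes that did not pass included all 6 genes annotated as sodium/hydrogen exchanger 10, of which LOC662198 was at 18.6, 5.91 and 11.1 CPM in fat body and 28.8, 35.9 and 13.6 in tubules. All 6 had the library order of the testis markers, and LOC662198 was called higher in tubules without fat body library 1 (-1.62, adjusted p = 0.027) or tubule library 3 (-1.45, adjusted p = 0.036).

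Water channels parted in 3 ways. Aquaporin AQPcic LOC661619 was at 9.73, 12.8 and 15.9 CPM in fat body and 98.1, 159.9 and 149 in tubules (-3.40 ± 0.26 (SE), adjusted p = 4.2e-06). AQPAe.a LOC103314963 was at 15.2, 13.2 and 14.7 CPM in fat body and 121, 163 and 144 in tubules (-3.31 ± 0.17 (SE), adjusted p = 6.2e-07). For both genes every tubule library lay far above the fat body and whole beetle libraries. Aquaporin-12 (LOC663053) was higher in fat body, at 84.5, 66.6 and 65.9 CPM in fat body and 14.3, 18.8 and 11.6 in tubules (2.28 ± 0.21 (SE), adjusted p = 1.3e-05). The last pair, LOC659519 and LOC107397987, overlapped between organs (-0.91 and -0.75), and LOC659519 was called higher in tubules without fat body library 1 (-2.06, adjusted p = 0.016).

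Of 7 genes annotated as carbonic anhydrases or as a carbonic anhydrase-related protein, 3 were higher in fat body and 1 in tubules. Whether the product of each gene hydrolyses COS was not tested. Putative carbonic anhydrase 3 (LOC659821) was at 221, 248 and 288 CPM in fat body and 59, 80 and 50.9 in tubules (2.0 ± 0.20 (SE), adjusted p = 2e-05). Beta carbonic anhydrase 1 (LOC659585), of the class unrelated in sequence to the animal alpha enzymes, was at 102, 107 and 106 CPM in fat body and 21.7, 32.5 and 18.8 in tubules (2.10 ± 0.21 (SE), adjusted p = 2e-05). For both genes the fat body level was near the whole beetle level, which was 208, 245 and 208 CPM for LOC659821 and 105, 113 and 97.6 for LOC659585. Carbonic anhydrase 1 LOC658563 was the gene higher in tubules, at 25.2, 23.4 and 23.4 CPM in fat body and 55.3, 48.8 and 68.8 in tubules (-1.26 ± 0.18 (SE), adjusted p = 0.00017), and whole beetles had 16.3, 14.9 and 12.4. The second gene of that name, LOC663170, went the other way at low levels (1.32 ± 0.22). Carbonic anhydrase-related protein 10 (LOC663015) missed the threshold (0.85 ± 0.36 (SE), adjusted p = 0.053), and passed without tubule library 2 (1.16, adjusted p = 0.023) or whole beetle library 3 (0.89, adjusted p = 0.045), and under RLE, upper-quartile and the authors' size factors, library totals alone and DESeq2. LOC658710 and LOC103315169 did not pass (-0.21 and -0.76) and had the testis markers' library order. LOC103315169 passed as higher in tubules without fat body library 1 (-2.21, adjusted p = 0.013).

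Genes that handle sulfur amino acids were higher in fat body for 3 of 5 and in tubules for 1. Cystathionine beta-synthase (LOC656954), which joins homocysteine to serine and can release hydrogen sulfide, was at 443, 405 and 528 CPM in fat body and 79.3, 88.3 and 129 in tubules (2.21 ± 0.22 (SE), adjusted p = 2e-05). Cysteine dioxygenase (LOC663314), which oxidises cysteine to its sulfinic acid, was at 33.3, 31.2 and 29.8 CPM in fat body and 7.03, 13.6 and 9.23 in tubules (1.66 ± 0.23). Of the cysteine sulfinic acid decarboxylases, LOC655768 was higher in fat body (0.74 ± 0.24 (SE), adjusted p = 0.019), a call lost without fat body library 2 or without tubule library 1 or 3 (adjusted p = 0.068, 0.07 and 0.062). LOC660516 was higher in tubules, at 0.0666, 0.17 and 0.0675 CPM in fat body and 0.62, 0.794 and 1.20 in tubules (-2.96 ± 0.52). With only the 6 organ libraries this gene did not pass the filter on low counts and was not tested, which left 3 and 0 of 4. Adenosylhomocysteinase (LOC656766) did not pass (0.32 ± 0.23).

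Carriers of organic solutes held some of the steepest differences in the table. The list as a whole was near the background, with 24 of 55 higher in fat body and 20 in tubules. A sodium-coupled monocarboxylate transporter, LOC658032, had the highest FPKM of the list, at 14.5, 12.9 and 17.8 CPM in fat body and 1155, 1137 and 864 in tubules (-6.13 ± 0.22 (SE), adjusted p = 1.4e-07). Another of that name, LOC103313220, was the lowest, at 0.8, 0.398 and 0.81 CPM in fat body and 86, 106 and 76.8 in tubules, a 134-fold difference (-7.07 ± 0.36). Monocarboxylate transporter 4-like LOC103312855 was furthest to the fat body side, at 51.8, 41.7 and 48.4 CPM in fat body and 0.465, 0.866 and 1.20 in tubules (5.82 ± 0.32 (SE), adjusted p = 8.9e-07). Genes of related description thus differed steeply in either direction.

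Sugar transporters showed the same split, with 18 of 43 higher in fat body and 21 in tubules. Most are annotated as facilitated trehalose transporters, carriers that let trehalose cross membranes down its gradient. LOC659896 had the highest FPKM, at 5.06, 10.1 and 5.94 CPM in fat body and 274, 355 and 328 in tubules (-5.50 ± 0.30 (SE), adjusted p = 8.1e-07). LOC655300 was nearly absent from fat body, at 0.0666, 0 and 0.338 CPM against 34, 36.9 and 49.9 in tubules (-8.21 ± 0.67 (SE), adjusted p = 6.3e-06), with 6 counts in all behind the fat body value, and its log2 fold change became -10.02 without fat body library 3 and -7.58 without library 2. The facilitated glucose transporter LOC103314163 had 89 counts in fat body and 0 in tubules, at least 30.2-fold higher in fat body when the tubules are set to 3 counts over the group. The list median moved from -0.91 to -1.84 without fat body library 1.

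Amino acid carriers were even, 15 and 15 of 34. Proton-coupled amino acid transporter LOC664380, a symporter driven by the proton gradient, was at 0.666, 0.398 and 0.945 CPM in fat body and 123, 157 and 130.0 in tubules (-7.67 ± 0.33 (SE), adjusted p = 2.6e-07). LOC657092, of the same family, was at 838, 955 and 1268 CPM in fat body and 70.9, 108 and 91.1 in tubules (3.51 ± 0.22 (SE), adjusted p = 2e-06), near the whole beetle level. ABC transporters, which pump substrates at the cost of ATP, gave 23 higher in fat body and 24 in tubules of 53. The multidrug resistance-associated protein LOC660659 was the most abundant per length, at 23.3, 25.7 and 42 CPM in fat body and 3225, 3575 and 3215 in tubules, a 110.1-fold difference (-6.78 ± 0.28 (SE), adjusted p = 2.3e-07). LOC660481, of the same family, was at 2.93, 1.70 and 3.78 CPM in fat body and 428, 564 and 569 in tubules (-7.54 ± 0.34). LOC658599 ran the opposite way, at 13.3, 24.7 and 25.2 CPM in fat body and 0.258, 0.216 and 0.468 in tubules (6.04 ± 0.45 (SE), adjusted p = 3.8e-06).

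**Figure D5:**
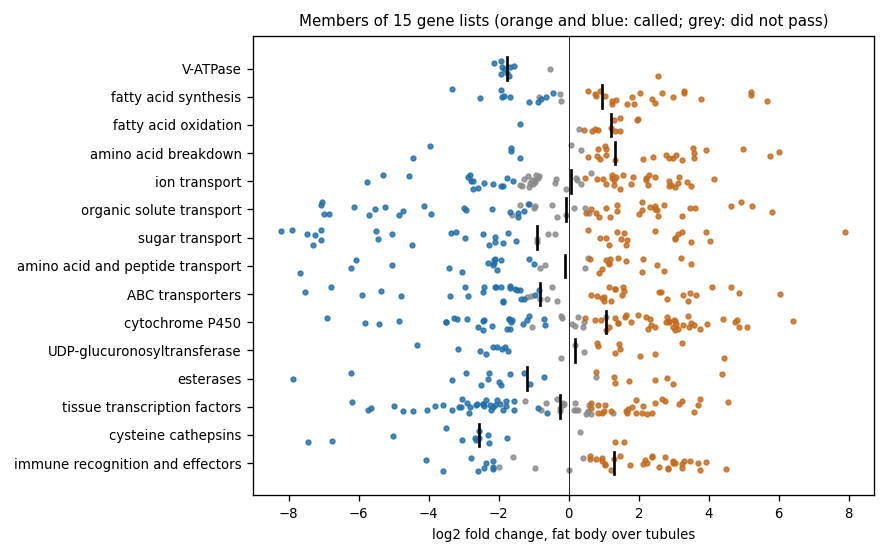
Log2 fold change of fat body over tubules for every tested member of 15 gene lists; each point is 1 gene, orange passed as higher in fat body, blue as higher in tubules, grey did not pass, and the black bar is the list's median. Members of the transporter and detoxification lists reach past 4 in both directions while V-ATPase and fatty acid oxidation genes cluster; the sugar transporter furthest right has 0 counts in tubules, so its position is set by the fit and is no bound.

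Receptors for diuretic peptides lay with the tubules. The capa receptor (CAPAr), which sets fluid secretion in the principal cells of flies, was at 1.27, 0.966 and 0.945 CPM in fat body, 72.8, 93.1 and 65.4 in tubules and 5.51, 6.20 and 4.45 in whole beetles. The organs did not overlap and whole beetles lay between them, with a difference of -6.18 ± 0.26 (SE), adjusted p = 2.5e-07. The diuretic hormone receptor LOC664316 was at 8.06, 9.20 and 6.41 CPM in fat body and 43.1, 53.4 and 37.8 in tubules (-2.50 ± 0.21 (SE), adjusted p = 6.7e-06), and LOC659812 at 58.8, 71.4 and 85.8 CPM in fat body and 304, 351 and 296 in tubules (-2.14 ± 0.17 (SE), adjusted p = 5.6e-06). A tachykinin-like peptide receptor, LOC660026, made the fourth (-2.07 ± 0.32).

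The adipokinetic hormone receptor (Akhr), through which that hormone releases lipid and sugar from the fat body, was at 225, 232 and 216 CPM in fat body and 23.5, 26.3 and 36 in tubules (2.97 ± 0.21 (SE), adjusted p = 2.9e-06). Of the 19 receptors and hormone signalling genes, 10 were higher in fat body and 4 in tubules. The others on the fat body side were less steep, among them the ecdysone-induced nuclear receptor E75 (LOC660005, 0.78 ± 0.19) and insulin receptor substrate 1 (LOC103313904, 0.78 ± 0.19). The ecdysone receptor (Ecr, 0.80 ± 0.32 (SE), adjusted p = 0.044) lost its call in 7 of the 9 fits that left out 1 library, which gave values from 0.53 without tubule library 2 to 1.07 without tubule library 3. The juvenile hormone receptor methoprene-tolerant (Tcmet, 0.48 ± 0.22) and the insulin-like receptor LOC661524 (0.38 ± 0.19) did not pass, and each passed without fat body library 1 (0.68 with adjusted p = 0.0065, and 0.49 with adjusted p = 0.04999).

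Takeout proteins, small haemolymph carriers whose family includes juvenile hormone binding proteins, led the juvenile hormone and ecdysteroid list towards fat body. That list had 17 of 26 members higher in fat body and 6 in tubules. LOC655472 had the highest log2 fold change of the list, at 73.2, 111 and 129 CPM in fat body against 0.724, 0.361 and 0.869 in tubules (7.29 ± 0.38 (SE), adjusted p = 6.9e-07). LOC663474 was the most abundant per length, at 949, 951 and 972 CPM in fat body and 12.2, 28.5 and 41 in tubules (5.14 ± 0.41). Farnesol dehydrogenases, which act on a precursor of juvenile hormone, split, with LOC657192 higher in tubules (-3.54 ± 0.48) and LOC657969 higher in fat body at 2148, 2377 and 2418 CPM in fat body and 147, 247 and 266 in tubules (3.40 ± 0.23).

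Of 81 transcription factors, 27 were higher in fat body (33.3%) and 35 in tubules (43.2%). Over all tested genes the shares were 38.8% and 41.0%, so the list as a whole was near the background. Ptx1 (LOC658711), a paired-class homeobox gene, was at 0.533, 0.909 and 2.70 CPM in fat body and 91, 129 and 79.7 in tubules (-6.18 ± 0.54 (SE), adjusted p = 9.2e-06; -7.08 without fat body library 3). Caudal (Cad), a homeobox gene of the hindgut and posterior body, was at 3.60, 1.36 and 0.945 CPM in fat body and 89.5, 107 and 117 in tubules (-5.73 ± 0.47 (SE), adjusted p = 6.1e-06; -6.48 without fat body library 1). Fork head (Fkh), a forkhead gene needed for gut and salivary gland in flies, had the highest FPKM of the list, at 3.67, 8.01 and 11.6 CPM in fat body and 132, 143 and 108 in tubules (-4.04 ± 0.39 (SE), adjusted p = 1.6e-05). A further forkhead gene, LOC659891 (FoxD3), was at -4.99 ± 0.36. Cut (LOC659250), which marks tubule precursors in the fly embryo, differed little, at 49.1, 65.1 and 79 CPM in fat body and 99.9, 93.1 and 101 in tubules (-0.61 ± 0.19 (SE), adjusted p = 0.013). That call was lost with RLE factors, with DESeq2 and with only the 6 organ libraries, and under the authors' size factors its sign turned (0.055, adjusted p = 0.82). Tiptop (LOC658891), a stellate cell gene in flies, was higher in fat body at low levels, 8.46, 6.19 and 6.48 CPM in fat body and 2.74, 4.04 and 2.34 in tubules (1.21 ± 0.36).

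The GATA genes of the list differed in direction. LOC103314939, annotated GATA-4, was higher in tubules at 6.13, 10.3 and 3.71 CPM in fat body and 43.9, 64.1 and 37.3 in tubules (-2.85 ± 0.38). LOC661820, GATA-binding factor A, was higher in fat body at 5.80, 9.83 and 10.3 CPM in fat body and 1.86, 1.01 and 1.14 in tubules (2.67 ± 0.36), and LOC661909, annotated GATA-4 as well, did not pass (0.48 ± 0.25) but passed without fat body library 1 (0.65, adjusted p = 0.04) or tubule library 3 (0.70, adjusted p = 0.034). The largest difference towards fat body was that of unc-4 (LOC657741), a homeobox gene of motor neurons in worms and flies, at 32.1, 32.8 and 36.2 CPM in fat body and 0.879, 2.02 and 1.47 in tubules (4.54 ± 0.31 (SE), adjusted p = 2.7e-06). FoxO (LOC664090), the forkhead factor downstream of insulin signalling, was higher in fat body (0.94 ± 0.16).

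Detoxification families had members higher in each organ. Of 74 cytochrome P450 genes, 40 were higher in fat body and 25 in tubules (median 1.07). Cyp9f2 had the highest FPKM, at 3238, 3314 and 4691 CPM in fat body and 329, 546 and 525 in tubules (3.01 ± 0.27 (SE), adjusted p = 1e-05). LOC658760, a P450 of the 6a group, was at 4.93, 4.43 and 8.71 CPM in fat body and 678, 817 and 657 in tubules (-6.90 ± 0.32 (SE), adjusted p = 3.8e-07), with whole beetles at 13.5, 10.8 and 14.2. LOC662300, of the 4C group, was furthest to the fat body side, at 8.93, 9.997 and 9.11 CPM in fat body and 0.103, 0 and 0.201 in tubules (6.39 ± 0.50, and 7.12 without tubule library 3). Glutathione S-transferases, which conjugate glutathione to electrophiles, gave 6 of 11 higher in fat body and 1 in tubules. The single tubule gene, LOC657602, was at 17.5, 31.7 and 15.5 CPM in fat body and 274, 341 and 178 in tubules (-3.61 ± 0.34 (SE), adjusted p = 1.4e-05). The transferase with the highest FPKM, LOC659302, did not pass, at 702, 483 and 411 CPM in fat body and 527, 681 and 440.1 in tubules (-0.05 ± 0.25).

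UDP-glucuronosyltransferases, which attach sugars to foreign compounds, were even at 9 and 9 of 21. LOC664474 was at 135, 125 and 126 CPM in fat body and 1.14, 7.86 and 8.96 in tubules (4.43 ± 0.62 (SE), adjusted p = 0.00014), and LOC655958 at 2.67, 4.26 and 3.31 CPM in fat body and 57.5, 100.3 and 50.2 in tubules (-4.34 ± 0.32 (SE), adjusted p = 3.9e-06). Esterases leaned to the tubules, with 13 of 22 higher there and 8 in fat body. Esterase FE4 LOC661621 was at 1.20, 0.454 and 2.70 CPM in fat body and 189, 465 and 363 in tubules (-7.88 ± 0.67 (SE), adjusted p = 7.9e-06, and -8.68 without fat body library 3), and the alpha-esterase LOC661102 went the other way at 14.4, 14.7 and 16.9 CPM in fat body and 0.517, 0.577 and 1.14 in tubules (4.37 ± 0.33). Of 6 antioxidant genes, catalase (LOC655157) was higher in fat body at 968, 849.7 and 982 CPM in fat body and 474, 513 and 420.2 in tubules (0.99 ± 0.14 (SE), adjusted p = 0.00016), and a glutathione peroxidase of the phospholipid type (LOC658380) higher in tubules at 17, 10.9 and 15.3 CPM in fat body and 62.4, 52.6 and 74 in tubules (-2.13 ± 0.22). The peroxiredoxin-6 genes took opposite courses, LOC656825 at 2.16 and LOC659242 at -1.84. Heat shock genes gave 7 higher in fat body and 6 in tubules of 19, and 4 and 7 without fat body library 1, or 4 and 6 without tubule library 3. Genes for small chaperones of the l(2)efl family ran from LOC657196, at 709, 656 and 806 CPM in fat body and 42.3, 36.6 and 31.8 in tubules (4.29 ± 0.18), to LOC664276, at 2.27, 2.16 and 2.57 CPM in fat body and 34.7, 5.92 and 9.16 in tubules (-2.83 ± 0.61). The LOC664276 value was -1.70 without tubule library 1.

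Purine genes, which lead to urate, the nitrogen waste of insects, were divided, and for 2 enzymes the copies lay on opposite sides. Amidophosphoribosyltransferase, the committed step of purine synthesis, had LOC656545 higher in fat body at 303, 358 and 539 CPM in fat body and 34.4, 43.9 and 64.3 in tubules (3.07 ± 0.30 (SE), adjusted p = 1.6e-05). Its second gene, LOC663722, was higher in tubules at 13.7, 14.1 and 13.6 CPM in fat body and 80.9, 51.3 and 103 in tubules (-2.50 ± 0.31 (SE), adjusted p = 6.3e-05). Phosphoribosylformylglycinamidine synthase showed the same pair, LOC100142601 at 1.29 ± 0.36 and LOC658176 at -2.98 ± 0.64, or -3.92 without fat body library 1. Tubule libraries 1 and 3 were above library 2 for LOC663722 and LOC658176, as for the sum of the 2 ovary markers. The share of all genes with this order was not counted, and the part of ovary tissue was not tested. Xanthine dehydrogenase, which forms urate, was higher in fat body for LOC656621, at 55.5, 83.8 and 239.7 CPM in fat body and 19.2, 18.4 and 35.8 in tubules (2.37 ± 0.52), with a value of 1.52 without fat body library 3. The second copy, LOC656456, was at 1.58 ± 0.44, or 0.90 without that library. In all, 8 of 16 purine genes were higher in fat body and 6 in tubules.

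Of 11 metal carriers, 6 were higher in tubules (54.5%) and 4 in fat body (36.4%), where all tested genes gave 41.0% and 38.8%. The fat body count was 2 without fat body library 2 or tubule library 1 or 3. Their summed level did not lean to the tubules, at 1039, 1087 and 973 FPKM in fat body and 797, 978 and 897 in tubules. Zinc transporter 2 LOC655654, an exporter into vesicles, was at 29.8, 35.5 and 29.6 CPM in fat body and 169, 238 and 145 in tubules (-2.54 ± 0.21 (SE), adjusted p = 6.5e-06). Transferrin LOC659207, an iron carrier, was at 33.1, 43.3 and 37.1 CPM in fat body and 261, 366 and 194 in tubules (-2.86 ± 0.27 (SE), adjusted p = 1.4e-05). Ferritin heavy chain (LOC655492), which stores iron, was abundant in both, at 2868, 2856 and 2764 CPM in fat body and 1740.4, 2346 and 2021 in tubules, and its small difference (0.47 ± 0.16 (SE), adjusted p = 0.022) lost the call without fat body library 2 or tubule library 1 or 3. Of the septate junction and brush border genes, 17 of 32 were higher in fat body and 6 in tubules. Mesh (LOC658199), a protein of the smooth septate junctions of gut and tubule, was at 311, 402 and 562 CPM in fat body and 1902, 2055 and 1072 in tubules (-1.98 ± 0.31 (SE), adjusted p = 0.00026).

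Immune genes were higher in fat body for 31 of 45 and in tubules for 9 (median 1.29). The serpin LOC663238, annotated as alaserpin, was at 122, 123 and 123 CPM in fat body and 5.89, 5.48 and 5.08 in tubules (4.48 ± 0.16 (SE), adjusted p = 1.5e-07). Phenoloxidase 2 (LOC655533), the melanin-forming enzyme of the blood, was at 41.6, 48.4 and 71.3 CPM in fat body and 2.12, 5.34 and 5.02 in tubules (3.70 ± 0.39). The recognition protein Gnbp2 was at 139, 116 and 111 CPM in fat body and 14.2, 19.9 and 20 in tubules (2.76 ± 0.20). Lysozyme (Lyz), which cuts bacterial cell walls, was higher in tubules at 90.6, 128 and 159 CPM in fat body and 498, 637 and 546 in tubules (-2.15 ± 0.21 (SE), adjusted p = 1.7e-05). Coleoptericin-like LOC103314751, an antibacterial peptide, was furthest to the tubule side at 0.133, 0.398 and 0.203 CPM in fat body and 0.517, 10.6 and 2.07 in tubules, and the difference of -4.08 became -2.30 without tubule library 2. Haemocyte markers were higher in the same fat body libraries, with hemocytin (LOC659879) at 193, 251 and 342 CPM in fat body and 25.8, 20.4 and 37.6 in tubules, and their part in the immune count was not tested. Tenecin-3 (LOC662738), an antifungal peptide in a related beetle, was the non-mitochondrial gene with the highest FPKM in fat body, at 3629, 3982 and 4315 CPM in fat body and 297, 512 and 522 in tubules (3.16 ± 0.27 (SE), adjusted p = 7.5e-06).

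Cysteine cathepsins were higher in tubules for 12 of 15 genes and in fat body for 2 (median -2.57). Zingipain-2 LOC658343 was at 10.8, 6.82 and 5.94 CPM in fat body and 1035, 1742 and 1327 in tubules (-7.44 ± 0.50 (SE), adjusted p = 2.4e-06), and whole beetles had 2.66, 3.73 and 7.58. Cathepsin L1 LOC660551 followed at 17.2, 4.94 and 7.56 CPM in fat body and 778, 1435 and 1023 in tubules with whole beetles at 0.194, 0.633 and 3.51 (-6.77 ± 0.91, and -7.43 without fat body library 1). The family includes the main digestive proteases of this beetle's midgut, and the gut markers were higher in the same libraries. The whole beetle libraries, which were untreated and mix all tissues, had less of LOC658343 and LOC660551 than the tubules had. The part of gut tissue in these levels was not tested. The trypsin with the highest FPKM, LOC655599, was at 49.4, 157 and 66 CPM in fat body and 715, 1145 and 1252 in tubules (-3.51 ± 0.46, and -4.16 without fat body library 2), and trypsin-5 LOC103315232 at 0.333, 2.50 and 1.08 CPM in fat body and 47.3, 615 and 52.4 in tubules, with tubule library 2 far above libraries 1 and 3 and a difference of -7.48 that became -5.22 without it and -8.38 without fat body library 2. Cathepsin L LOC659226 was higher in fat body, at 866, 852 and 946 CPM in fat body and 263, 249 and 371 in tubules (1.59 ± 0.18 (SE), adjusted p = 4.3e-05).

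Among the 10 genes furthest to the fat body side by the naming rule, several had no list of their own. A venom acid phosphatase homologue (LOC659580) was at 808, 994 and 1119 CPM in fat body and 9.67, 10.2 and 11.6 in tubules (6.53 ± 0.21 (SE), adjusted p = 1.4e-07). A histidine-rich glycoprotein (LOC655786) was at 3901, 4471 and 4308 CPM in fat body and 60.8, 51.4 and 58.3 in tubules (6.22 ± 0.17 (SE), adjusted p = 1.4e-07). A glucose dehydrogenase (LOC662132) was at 51.8, 82.5 and 71.6 CPM in fat body and 0.827, 0.505 and 0.669 in tubules (6.65 ± 0.32 (SE), adjusted p = 4.1e-07), and another gene of the same description, LOC661316, was among the 10 furthest to the tubule side at 0.8, 0.568 and 0.338 CPM in fat body and 122, 112 and 83.7 in tubules (-7.52 ± 0.49 (SE), adjusted p = 2.1e-06). Troponin C LOC659195 of muscle was in the first group too (6.34 ± 0.44). A phospholipase A1-like gene (LOC656826, 6.13), a 15-hydroxyprostaglandin dehydrogenase (LOC103314500, 6.0, and 6.84 without tubule library 3) and a gene named for nose resistance to fluoxetine (LOC657729, 6.24) were in it as well.

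The tubule group held a 4-nitrophenylphosphatase (LOC662004) at 4.20, 1.65 and 2.03 CPM in fat body and 557, 652 and 464 in tubules (-7.73 ± 0.40 (SE), adjusted p = 6.6e-07). A sulfotransferase 1A1 (LOC103312936), which adds sulfate to small phenols, was at 9.86, 6.13 and 6.35 CPM in fat body and 990.2, 1633 and 1363 in tubules (-7.48 ± 0.31 (SE), adjusted p = 2.3e-07). A basic proline-rich protein (LOC660391) was at 1.87, 2.44 and 5.13 CPM in fat body and 357, 901 and 849.8 in tubules (-7.80 ± 0.54), and mucin-21 (LOC107397713) at 2.73, 1.31 and 1.96 CPM in fat body and 364, 398 and 337 in tubules (-7.52 ± 0.30). The non-mitochondrial gene with the highest FPKM in tubules, LOC655293, is described only by its likeness to a circumsporozoite protein. It was at 2494, 419 and 545 CPM in fat body and 6633, 5151 and 2878 in tubules (-2.08 ± 0.64 (SE), adjusted p = 0.014), and the difference was -3.34 without fat body library 1. Chitinase 4 (Cht4), which cuts chitin and was counted with the cuticle list, was at 26.3, 7.78 and 13.6 CPM in fat body and 1678, 2066 and 1841 in tubules (-6.87 ± 0.49 (SE), adjusted p = 3.4e-06). The chemosensory protein Csp11, from a family of small secreted binding proteins, was at 1193, 1198 and 1177 CPM in fat body and 19.9, 45.3 and 56 in tubules (4.88 ± 0.37 (SE), adjusted p = 4.2e-06). The fatty acyl-CoA reductase LOC656109, of a family used by oenocytes for hydrocarbon synthesis, was at 10.9, 9.32 and 10.7 CPM in fat body and 538, 456 and 322 in tubules (-5.41 ± 0.24 (SE), adjusted p = 2.6e-07). Ribosomal protein genes in the table numbered 5, and 4 were higher in tubules, led in CPM by the ubiquitin fusion L40 (LOC656930) at 482, 318 and 333 CPM in fat body and 796, 1000.1 and 884 in tubules (-1.24 ± 0.18). These 5 are the ribosomal genes of a selected table and say nothing of the ribosome as a whole. Among the genes without a described product, 985 of 1281 passed.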

How the data were processed

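Per the labels' protocols, total RNA came from a TRIzol extraction with DNase I digestion, and reads were aligned to the Tcas5.2 assembly. Reads were trimmed with Trimmomatic 0.32, per the submitters' processing notes, and the aligner, counter and strand setting were not stated in the labels or headers. The deposited table holds, for 5467 genes, expected counts (estimated counts of reads per gene), a size-factor-normalised signal, FPKM, TPM and log2 fold changes, all made by the authors. Columns were assigned to libraries by titles, and no per-sample column was left without a library. The authors' lengths behind FPKM match gene spans: over 3621 genes found by symbol in a RefSeq table of another assembly (icTriCast1.1), the median ratio of span to length was 1.00, with 72.7% within 10%. FPKM of a gene with long introns is thus understated, and ranks by FPKM carry that limit. Paralogues may share reads.

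Library totals were recovered as count × 1e9 / (FPKM × length). Counts were rounded, filtered with filterByExpr (109 genes removed), scaled by TMM and fitted in 1 edgeR 4.0.16 quasi-likelihood model over all 9 libraries, contrast fat body minus tubules, with Benjamini-Hochberg adjusted p under 0.05 over 5358 genes. The SE is the log2 fold change over the square root of F. The procedure was tested on simulated counts with known fold changes in a small part of the genes, balanced between the organs, and with the spread of the fit itself. In the data most genes passed, so the simulation cannot check the scaling. The 46 gene lists came from words in the deposited descriptions, with matches that did not belong removed and a few genes added on reading them. Genes named in the text were the 10 furthest to each side in log2 fold change among passing, non-overlapping, described genes above the median CPM, the 6 described genes with the highest FPKM in each organ, the most abundant, highest and lowest member of each list, and all members of the lists on yolk, V-ATPase, aquaporins, carbonic anhydrases, ion transport, receptors, transcription factors, trehalose and purines, and of lists with 8 or fewer tested members. Lists and members were chosen with earlier results of these data known, and no list was tested as a set. Alternatives were other scalings, no filter, DESeq2, only the 6 organ libraries, a replicate block, a 2-fold threshold and leaving out each library.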

Additional observations from a re-analysis of the deposited data

How the results depend on the processing

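Leaving out each of the 9 libraries in turn gave 4029 to 4533 called genes, 1902 to 2090 of them higher in fat body and 2127 to 2443 higher in tubules, with 46.1% to 48.1% of calls higher in fat body where the full set gave 48.6%. Called genes numbered 4332 with RLE factors, 4336 with upper-quartile factors, 4230 with library totals alone, 4366 with no low-count filter, 4435 with DESeq2 and 4029 with only the 6 organ libraries. With the authors' size factors 56.3% of 4454 calls were higher in fat body. Against a 2-fold threshold, 1323 genes were higher in fat body and 1924 in tubules. Under the authors' size factors the sign turned for the cut gene LOC659250 (0.055, adjusted p = 0.82) and for the list medians of organic solute transport (0.57), amino acid and peptide transport (0.53), transcription factors (0.40), heat shock proteins (0.53) and the proteasome (0.45). The lipase median ran from -0.63 without fat body library 1 to 0.65 without tubule library 3. The cause was not tested.

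With the replicate number as a block, 4129 genes were called, 1975 higher in fat body and 2154 in tubules. The numbers do not pair the samples by label, and same-numbered fat body and tubule libraries correlated in their deviations at 0.229, -0.188 and 0.0411, so the block was not used. Of 185 named genes followed, 164 were called, and 158 kept call and direction under every alternative that gave a value, the 2-fold threshold left out. Against that threshold 145 were called. LOC660826, LOC660516 and LOC103314751 were not tested with only the 6 organ libraries. Sensory markers higher in tubules numbered 12, but 22 with no low-count filter and 20 with DESeq2. With the authors' size factors, genes higher in tubules fell from 11 to 6 in fatty acid synthesis, and among markers from 6 to 2 for muscle, 5 to 3 for nerve and testis and 9 to 5 for oenocytes. With only the 6 organ libraries, genes higher in fat body fell from 11 to 7 in glycerolipid metabolism and in the respiratory chain, and with the replicate block from 7 to 4 among heat shock proteins. Depth limits genes with few counts, since 4 genes had 0 counts in tubules and 12 in fat body, and the fitted fold changes of these genes are no bounds.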
